A study of Caenorhabditis elegans with 2 samples.

Results

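The genes described here are the 2 C. elegans 14-3-3 genes, ftt-2 and par-5, and the calmodulin gene cmd-1, examined for binding of the zinc finger protein ZTF-26. They are 3 of 19973 nuclear protein-coding genes. ftt-2 and cmd-1 were chosen by the signal of their peaks, since each names 1 of the 25 strongest peaks of the study, and par-5 was added as the paralogue of ftt-2. The high signals of ftt-2 and cmd-1 are therefore a description and carry no test. For each gene, every summit (the highest point of a peak) from 5000 bp upstream of the 5' end to the 3' end was collected.

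Binding was measured by ChIP-seq, in which DNA bound to the tagged protein is pulled down, here with an anti-GFP antibody, and sequenced. Both libraries came from strain OP565, which carries unc-119(tm4063) on chromosome III and the transgene wgIs565, a C-terminal GFP-FLAG fusion of ZTF-26. Whole young adults of mixed sex were collected 56 hours after starved L1 larvae were released, so the values average over all tissues. The 2 libraries are biological replicates 3 and 4 of 1 group, and a control library was not analysed here. The sources used here do not give the promoter that drives the transgene.

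14-3-3 proteins form dimers that bind other proteins at phosphorylated serines or threonines and so hold them in place, keep them out of the nucleus or shield them. In C. elegans, PAR-5 is needed for the anterior-posterior polarity of the 1-cell embryo, and both 14-3-3 proteins bind DAF-16, the FOXO transcription factor of insulin signalling. Calmodulin is a small EF-hand protein that binds calcium and then switches kinases, phosphatases and channels on or off. The 14-3-3 paralogues are close in sequence: in their longest annotated isoforms, of 248 residues each, 85.9% of aligned residues and 79.0% of aligned coding bases were identical, with no identical run of bases longer than 19.

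The sequences under the strongest summits are shown first, because the summits at ftt-2 share a word and that at cmd-1 holds a long palindrome. Each has the length of a summit with 50 bases on each side, on the plus strand of the WBcel235 (ce11) reference genome. For ftt-2 they are X:11605886-11605986 and X:11606123-11606223, each centred on a summit. For cmd-1 it is V:1151457-1151557, centred on the summit. For par-5 it is IV:11822105-11822205, which holds the summit near its right end and stops before the first base of the neighbouring gene M117.3. Capitals mark, for ftt-2, the longest run that its windows share and, for cmd-1, the longest palindrome (a stretch equal to its own reverse complement). Nothing is marked for par-5. Its base composition and word search, given below, are for the window centred on its summit, IV:11822152-11822252, and not for the stretch printed.
ftt-2 strongest summit: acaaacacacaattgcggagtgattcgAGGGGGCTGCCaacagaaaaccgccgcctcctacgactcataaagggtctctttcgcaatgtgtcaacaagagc
ftt-2 second summit: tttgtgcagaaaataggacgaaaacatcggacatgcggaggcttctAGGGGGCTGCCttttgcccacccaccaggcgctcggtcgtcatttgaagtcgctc
cmd-1 strongest summit: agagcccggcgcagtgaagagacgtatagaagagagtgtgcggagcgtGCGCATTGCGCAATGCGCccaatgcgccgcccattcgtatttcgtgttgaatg
par-5 summit: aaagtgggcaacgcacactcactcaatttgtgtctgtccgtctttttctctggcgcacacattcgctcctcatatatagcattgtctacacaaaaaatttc

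ftt-2 had 2 optimal summits upstream of its 5' end, in a long stretch with no other protein-coding gene. Optimal peaks are those the authors kept by irreproducible discovery rate, a measure of how well calls repeat. Of these 1929 peaks, 1902 had a matched peak in both replicates. The gene (WBGene00001502) lies on the minus strand at X:11603708-11605419, and the next upstream protein-coding gene, F52D10.4, starts after a gap of 12050 bp, wider than the gap of 97.3% of protein-coding genes (median 939 bp). The stronger summit, at X:11605936, lay 517 bp upstream of the 5' end, inside the exon of F52D10.7, an annotated non-coding RNA gene on the same strand. Its signal, a value the authors give each peak on a scale they do not state, was 612 when the replicates were pooled, 372 in replicate 3 alone and 244 in replicate 4. It ranked 24 of 28233 pooled peaks, 31 of 30000 in replicate 3 and 20 of 20373 in replicate 4. Rank 24 was close to the limit of the choice of 25: the peak of rank 25 had signal 600 and that of rank 26 had 599.

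The second ftt-2 summit, at X:11606173, lay 754 bp upstream in another non-coding RNA gene, F52D10.9, and 237 bp from the first within 1 interval, X:11605702-11606230. Only 19 of 1910 optimal intervals held more than 1 summit. In the replicates' own lists the second summit was strong, with signal 165 and rank 189 in replicate 3 and signal 112 and rank 118 in replicate 4. In the pooled list its signal was 123 and its rank 1072. Across the 1902 optimal peaks matched in both replicates, pooled signal was nearly the sum of the replicates' signals, with a median ratio of 0.994 and an SD of 0.0876. The first ftt-2 summit followed this at 0.993, whereas the second was at 0.446, lower than all but 0.789% of these peaks. Over the 19 weaker summits that share an interval with a stronger one the median ratio was 0.664, and over the 19 stronger ones it was 0.993. Matching took the strongest replicate peak within 200 bp, so some weaker summits were given the replicate peak of a stronger neighbour, which lowers their ratio. The second ftt-2 summit, 237 bp from the first, was matched to peaks of its own. Its ratio and those low ratios are therefore not measured alike. How the authors' calling treats neighbouring summits was not tested, so the pooled rank of the second summit is given beside its replicate ranks throughout.

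The other pooled candidates in the ftt-2 window were weak. They numbered 5, with signals from 25.8 to 38.1 and the best ranked 10853 of 28233. Of these, 2 lay inside the gene, 1 in a coding exon and 1 in an intron. None of the optimal summits lay inside the gene.

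par-5 had 1 optimal summit, near the weak end of that list. The gene (WBGene00003920) lies on the minus strand at IV:11820506-11821924, and M117.3, which runs in the opposite direction, starts after a gap of 281 bp, so both genes have their 5' ends at this short stretch. The summit, at IV:11822202, lay 278 bp upstream of par-5 but only 4 bp upstream of M117.3, in the annotated non-coding RNA gene M117.11. The pooled signal there was 103, with 62.4 from replicate 3 and 57.0 from replicate 4. These ranked 1521, 1749 and 758 in their lists. In replicate 3 the summit of this peak was 124 bp to the left of the pooled one, 154 bp upstream of par-5, and in replicate 4 it was 9 bp to the right, inside the 5' untranslated region of M117.3. The peak cannot be assigned to par-5 or to M117.3 from its position. The other 3 pooled candidates in the window had signals from 24.3 to 31.8, the highest of them in the 3' untranslated region of par-5.

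The strongest signal at ftt-2 was 5.95 times that at par-5 in the pooled list. Within replicate 3 the ratio was 5.97 and within replicate 4 it was 4.28, a mean of 5.12 ± 1.19 (SD, n = 2). ftt-2 was the higher of the pair in both replicates, but these replicates make up the pooled list from which it was chosen. No test of this difference was run, because ftt-2 was chosen for a strong peak. To set lists of different scale side by side, each signal was also divided by the median of that list's 1929 strongest peaks. On this scale ftt-2 stood at 4.41 in replicate 3 and 4.78 in replicate 4, and par-5 at 0.739 and 1.12. The paralogues' strongest summit windows shared no run of letters longer than 7.

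cmd-1 had 2 optimal summits, and the strong one lay far from the gene, inside another annotated transcript. The gene (WBGene00000552) lies on the plus strand at V:1156271-1158189. The strongest summit, at V:1151507, was 4764 bp upstream of its 5' end, in an exon of linc-128, a long intergenic non-coding RNA gene at V:1150906-1153207 on the same strand. cmd-1 has the nearest protein-coding 5' end, and no other protein-coding gene has this summit in its window. The summit is near the 5000 bp limit of that window, and its peak cannot be assigned to cmd-1 or to linc-128 from its position. The pooled signal there was 715, with 470 from replicate 3 and 245 from replicate 4, and it ranked 15, 13 and 19 in these lists. The replicates' summits lay 19 bp to the right and 8 bp to the left of the pooled one.

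The second optimal summit of cmd-1, at V:1154879, lay 1392 bp upstream of the gene in intergenic sequence, between linc-128 and cmd-1. The pooled signal there was 109 (rank 1362), with 76.9 from replicate 3 (rank 1168) and 35.8 from replicate 4 (rank 2228), so in replicate 4 it was not among the 1929 strongest. The pooled candidate nearest upstream of the 5' end, at 153 bp, had a signal of 62.0 (rank 3973) and is not in the optimal list. Replicate 3 had a peak of signal 41.4 there and replicate 4 one of 27.6. Another candidate lay 67 bp downstream of the 5' end, in a coding exon, with a signal of 30.3 (rank 17068). The remaining 3 pooled candidates in the window had signals from 22.3 to 61.3. The upstream gap of cmd-1 to cutl-22, the next protein-coding gene, was 9769 bp, wider than that of 95.4% of genes, as at ftt-2 and unlike at par-5.

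**Figure D1:**
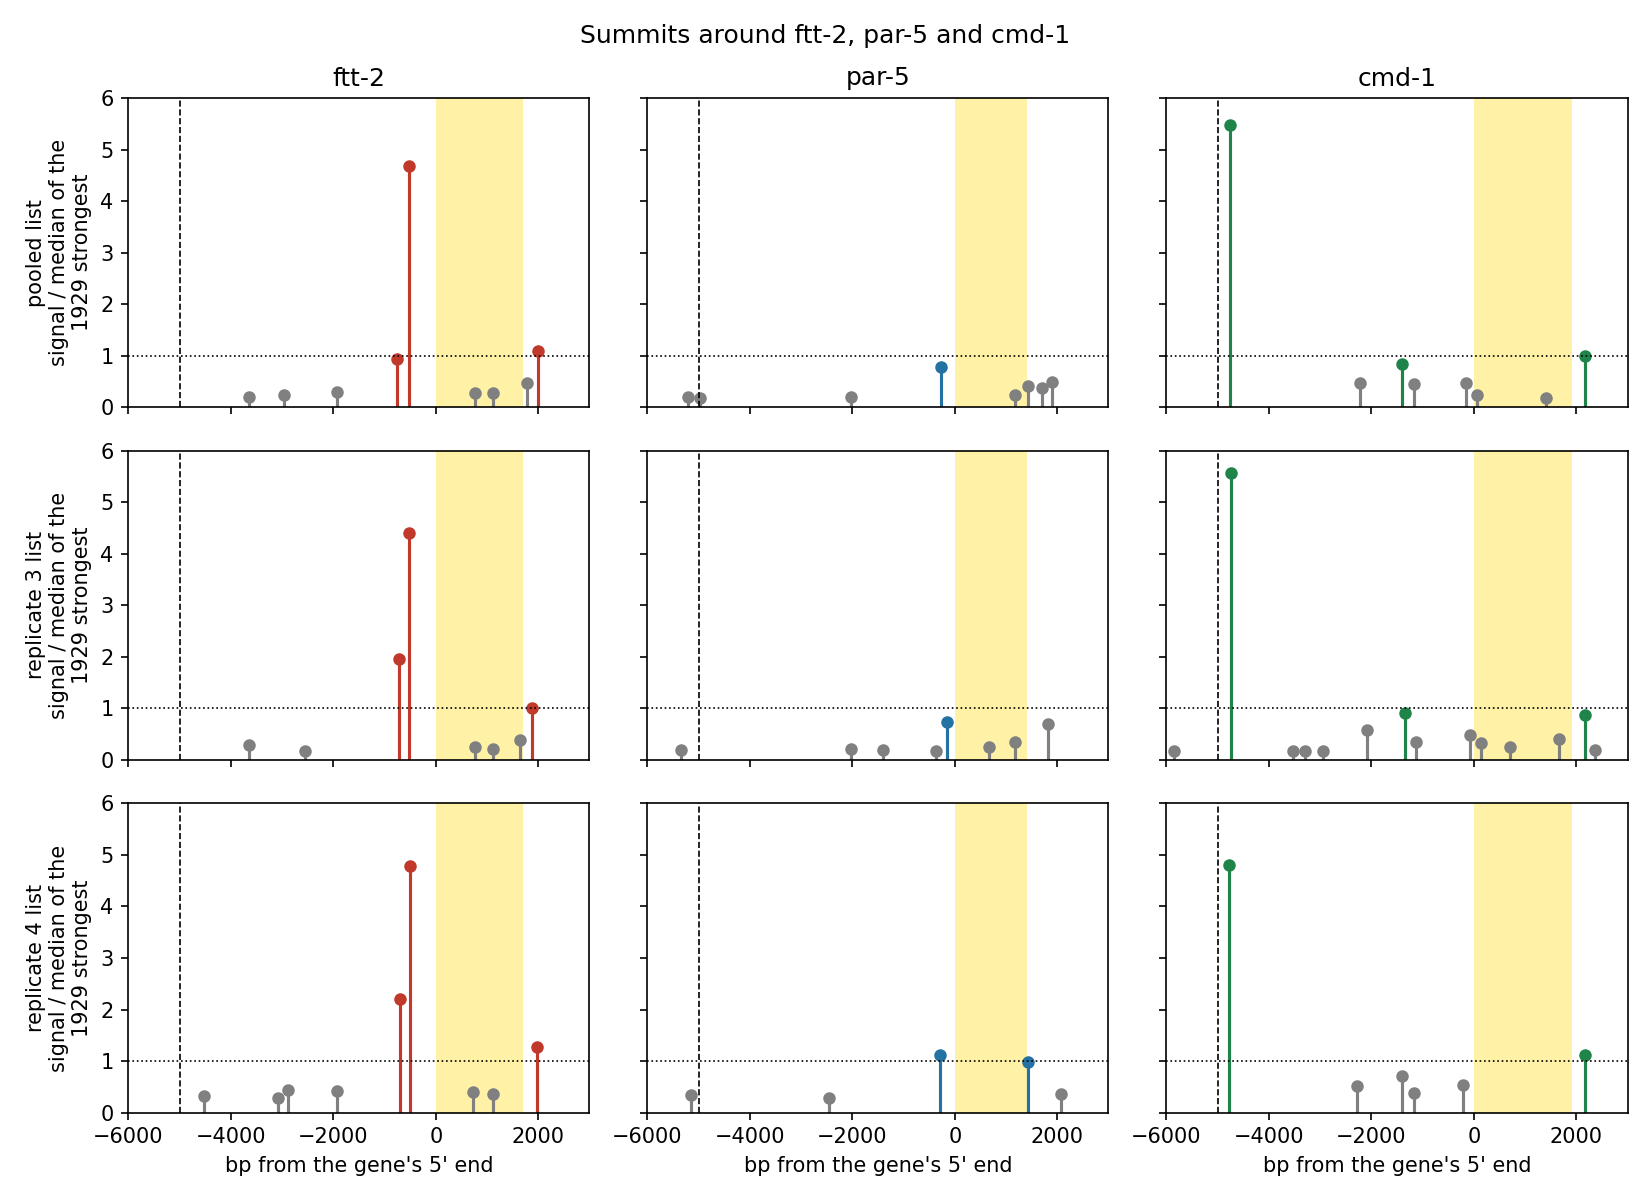
Summits by distance from the 5' end (bp, negative upstream) of ftt-2, par-5 and cmd-1, in the pooled list and each replicate's own list. The y axis is the authors' signal divided by the median of the list's 1929 strongest peaks; coloured points are among those 1929, grey points are not, yellow marks the gene and the dashed line the limit of 5000 bp. The strong summit is 517 bp upstream at ftt-2 and 4764 bp upstream at cmd-1, and none at par-5 exceeds 1.12.

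cmd-1 and ftt-2 were above par-5 in both replicates, but these replicates make up the pooled list from which cmd-1 and ftt-2 were chosen. The ratio of strongest signals of cmd-1 to ftt-2 was 1.26 in replicate 3, and in replicate 4 the signals were nearly level, 245 against 244. On the relative scale cmd-1 stood at 5.18 ± 0.545 and ftt-2 at 4.59 ± 0.261 (mean ± SD, n = 2). The values were 5.57 against 4.41 in replicate 3 and nearly level, 4.80 against 4.78, in replicate 4. The order of these 2 genes was not tested.

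Signal was higher in replicate 3 than in replicate 4 at all 5 optimal summits, as at most optimal peaks, where the median ratio was 1.72 (SD of the log2 ratio 0.52). The ratio was 1.92 and 2.14 at the strong and the weak summit of cmd-1, 1.53 and 1.47 at those of ftt-2, and 1.10 at par-5. The ratio at par-5 was lower than at all but 8.52% of optimal peaks. A second replicate 3 peak overlaps the par-5 interval with its summit closer to the pooled one, and pairing by the nearest summit gives a ratio of 0.252 in place of 1.10. The direction of the replicate difference at par-5 depends on how the peaks are paired.

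**Figure D2:**
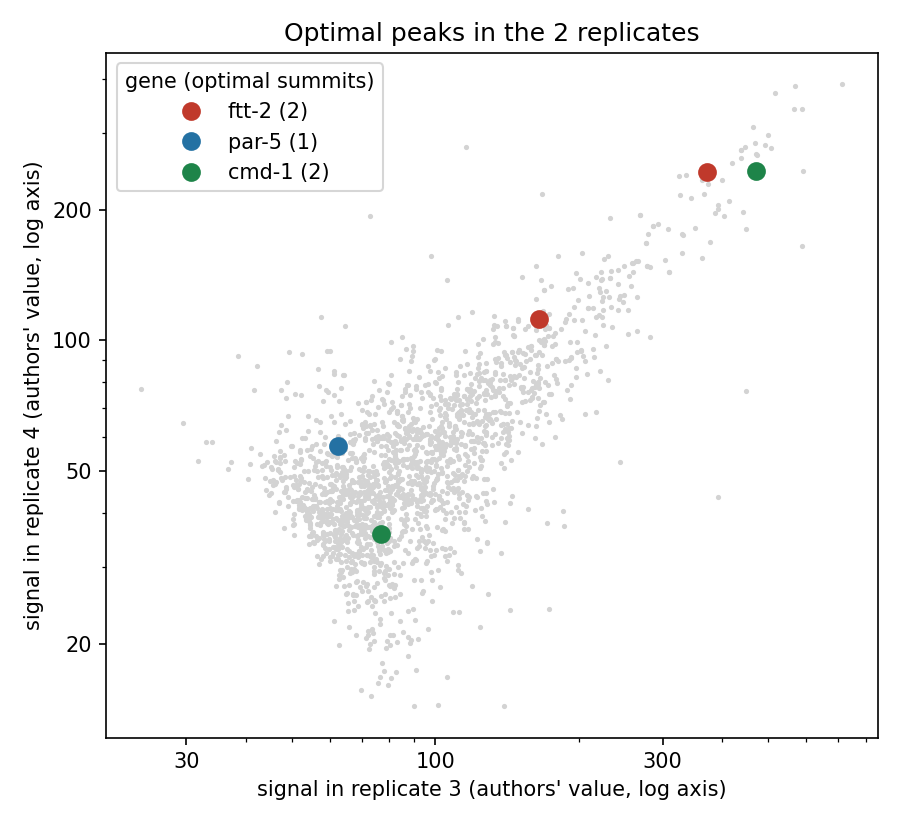
Signal of each optimal peak in replicate 3 (x axis) and replicate 4 (y axis), the authors' values on log axes; grey points are all matched optimal peaks and coloured points the 5 optimal summits of the 3 genes. The strong summits of ftt-2 (372 and 244) and cmd-1 (470 and 245) lie at the upper right, and par-5 (62.4 and 57.0) and the weak cmd-1 summit (76.9 and 35.8) among the bulk of the peaks.

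All 3 genes had at least 1 optimal summit, against 13.0% of protein-coding genes (2589 of 19973) with a window built in the same way. At least 2 optimal summits were found for ftt-2 and cmd-1 and for 3.02% of genes, and a peak of the top 25 for these 2 and 0.220% of genes. A pooled candidate of any rank was found for 71.6% of genes, with a median of 2 per gene, against 7 at ftt-2, 7 at cmd-1 and 4 at par-5. The choice of ftt-2 and cmd-1 fixed that each had a top 25 peak and so at least 1 optimal summit, and nothing is read from those counts. Ordered by the strongest summit in the window, cmd-1 ranked 31 and ftt-2 ranked 42 of all protein-coding genes, and par-5 ranked 2156 of the 2589 with an optimal summit. The median of those 2589 was a signal of 138, above the 103 of par-5.

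**Figure D3:**
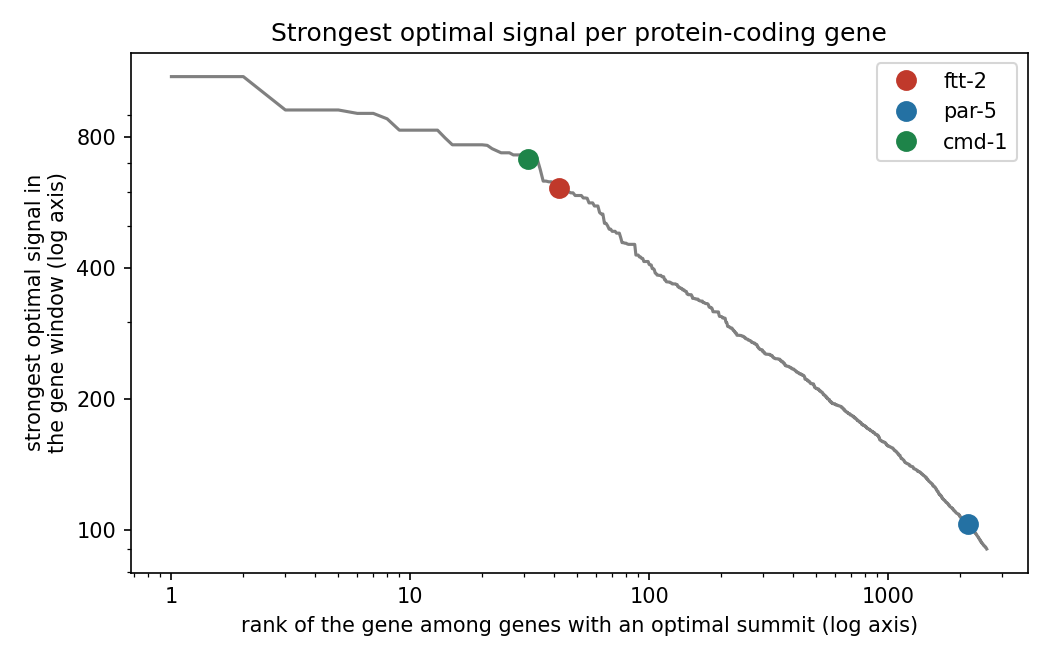
Strongest optimal signal in the window of each of the 2589 protein-coding genes with an optimal summit, ordered from strongest to weakest; both axes are logarithmic. cmd-1 (715) and ftt-2 (612) lie at ranks 31 and 42, and par-5 (103) at rank 2156.

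The optimal summits held none of the short words searched, which were chosen with earlier results of these data known. Each was searched on both strands within 50 bases of a summit, and all 5 optimal summits of the 3 genes lacked all 6. Among the 1929 optimal windows of the study, ACGCAGA was in 7.88%, against 2.29% of 26304 lower-ranked windows. The overlapping word CTGCGTC was in 7.98% against 2.19%. A further word that overlaps these, GAGACGC, was in 8.29% against 2.12%. The repeat CTCTCTC was in 9.90% against 3.37%, the palindrome CACGTG in 8.24% against 2.97%, and CGCCAGC in 3.58% against 0.715%. At least 1 of the 6 was in 29.5% of optimal windows and in 9.90% of lower-ranked ones, so most optimal windows lack them too. Among the lower-ranked candidates, CTCTCTC was present at the one 153 bp upstream of cmd-1, and CACGTG at the most distant one in the par-5 window. These letters are absent from the windows only, and nothing follows for sites beyond them.

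The windows at ftt-2 instead shared a run of 11 letters, AGGGGGCTGCC, printed in capitals above. It begins 23 bases to the left of the strongest summit and 4 bases to the left of the second. These were the only copies in the 6 nuclear chromosomes, counted on both strands, so no other summit window of either set holds it. Of the 19 pairs of neighbouring summits within 1 optimal interval, 5 shared a run of 11 or more, with a median of 7 and a highest value of 20, so a shared run of this length is not particular to ftt-2.

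The palindrome at the strongest cmd-1 summit is 18 bases long, occurs once in the 6 chromosomes and begins 2 bases to the left of the summit. A palindrome of 18 bases or more was found in 4 optimal windows (0.207%) and 83 lower-ranked ones (0.316%), and the median longest palindrome was 6 in both sets. Base composition also differed between the members. G and C made up 57.4% of the window at the strongest cmd-1 summit and 51.5% and 55.4% at the ftt-2 summits. They made up 43.6% at the weak cmd-1 summit and 37.6% in the window centred on the par-5 summit. The median over optimal windows was 46.5% and over lower-ranked ones 40.6%. Both ftt-2 windows and the strongest cmd-1 window were above the optimal median, and the others were below it. The second ftt-2 window was richer in G and C than the first. Its pooled signal was 123 against 612 and below the optimal median of 131, and its replicate ranks were 189 and 118. A relation of base composition to signal was not tested.

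Genes of the pathways around 14-3-3 and calmodulin were examined in 4 lists with the same window, for which 13.0% of all protein-coding genes had an optimal summit. No list member reached the signal of ftt-2 or cmd-1. The counts are small, and long genes have longer windows, so they are given as a description.

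Of 11 genes for 14-3-3 partners and insulin signalling, 3 (27.3%) had an optimal summit: pdk-1, akt-2 and daf-16. The strongest was at pdk-1, which encodes a kinase that activates AKT, with a pooled signal of 233, 157 in replicate 3 and 76.2 in replicate 4, in an intron 1862 bp downstream of the 5' end. At akt-2, which encodes one of the AKT kinases whose phosphorylation of DAF-16 creates 14-3-3 sites, the signal was 163 (116 and 44.0 in the replicates), 738 bp upstream. daf-16 had 5 optimal summits in a window that also covers its 26206 bp, and the strongest had a signal of 120. The other 8 genes, daf-2, age-1, sgk-1, daf-18, hcf-1, sir-2.1, crtc-1 and akt-1, had strongest signals from 24.1 to 86.5. The median over the list was 48.2, against 33.7 over all genes.

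Of 6 cell polarity genes, which act with par-5 in the embryo, 2 (33.3%) had an optimal summit. At par-2, which encodes a RING protein of the posterior cortex, the signal was 152 (106 and 44.4 in the replicates), 642 bp upstream, in the 5' untranslated region of rab-18, whose 5' end is nearer. At pkc-3, which encodes the atypical protein kinase C of the anterior cortex, it was 132 (95.6 and 47.5), 257 bp upstream. par-1, par-3, par-4 and par-6 had none. The list median was 57.5.

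Of 7 annotated genes for calmodulin-like proteins, 2 (28.6%) had an optimal summit, and an eighth, cal-6, was not matched as a protein-coding gene. At cal-7 the signal was 247 (156 and 108), in an intron of drap-1, 2873 bp upstream, and drap-1 has the nearest 5' end. At cal-5 it was 154 (124 and 32.8), 92 bp upstream and inside an intron of ets-5. The other 5 genes had strongest signals from 23.0 to 54.0, and the list median was 36.7.

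Of 15 genes for calmodulin targets and calcium signalling, 2 (13.3%) had an optimal summit, close to the share of all genes. At crh-1, which encodes the CREB transcription factor downstream of calmodulin-dependent kinases, the signal was 133 (71.4 and 63.3), 354 bp upstream. At efk-1, which encodes the calmodulin-dependent kinase of elongation factor 2, it was 91.4 (58.5 and 34.5), in a coding exon that overlaps F42A10.9. This summit lay 3038 bp downstream of the efk-1 5' end, and F42A10.9 has the nearest 5' end. The calcineurin genes tax-6 and cnb-1, the kinase genes unc-43, cmk-1 and ckk-1 and the calcium pump and channel genes mca-1, mca-2, mca-3, itr-1 and unc-68 had none. The strongest candidate among those without one was at mca-2, with a signal of 89.9. The list median was 63.2.

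**Figure D4:**
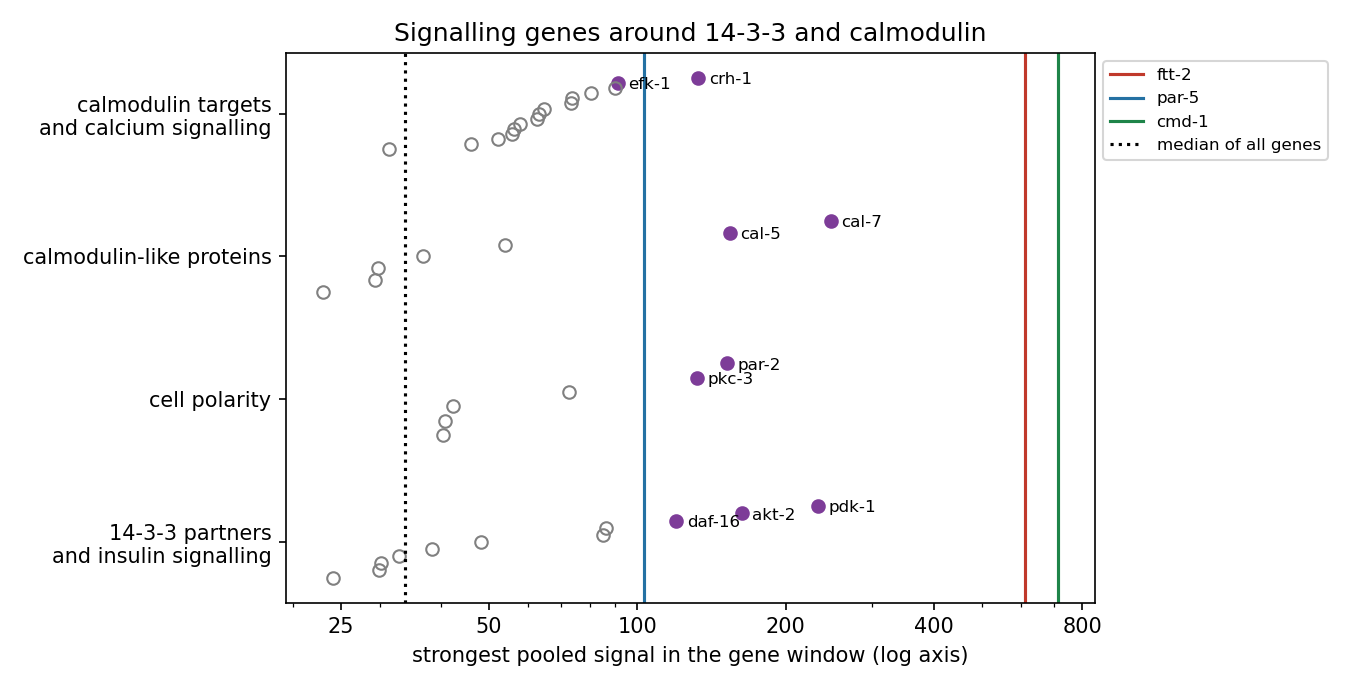
Strongest pooled signal in the gene window (x axis, log) for each gene of the 4 lists; filled points have an optimal summit and are named, open points do not. Vertical lines give par-5 (103), ftt-2 (612), cmd-1 (715) and, dotted, the median of all protein-coding genes (33.7). All list genes lie to the left of ftt-2, which was chosen for a strong peak, and the highest is cal-7 at 247.

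The optimal peaks most like the strongest peaks of ftt-2 and cmd-1 were found by the distance between log2 signals in the 2 replicates, a measure over 2 samples only. For ftt-2 they were the peak 597 bp upstream of egg-5 (signals 362 and 234, distance 0.0712) and one 1057 bp downstream of the 5' end of T27A8.7 on X (373 and 228, distance 0.0954). For cmd-1 they were the peaks upstream of the histone methyltransferase gene set-16 (474 and 250, distance 0.0331) and of the ribosomal protein gene rpl-15 (473 and 267, distance 0.124).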

How the data were processed

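The deposited peak lists on ce11 were used: an optimal list, a pooled candidate list and 1 candidate list for each of replicates 3 and 4. Per the labels and the deposited file list, the authors called peaks and background from each replicate and from both together, and derived the optimal list by irreproducible discovery rate. No caller, aligner or threshold is given in these sources. Each peak has the authors' signal value, whose scale is not given, a −log10 q-value, deposited by the authors and equal to 3.63 for every optimal peak, and a summit. Depth is unknown, so no interval was computed. The optimal peaks are the 1929 strongest of the pooled list, and the lower-ranked windows are its other peaks. The replicate 3 list holds exactly 30000 peaks, so its length was not read as a measurement.

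Genes came from Ensembl release 115 (WBcel235) and bases from the RefSeq genome of that build. A window ran from 5000 bp upstream of the gene record's 5' end to its 3' end. A replicate peak was matched to an optimal peak when it overlapped by at least 1 bp with its summit within 200 bp, taking the strongest, a rule set after the values were seen. Coordinates are 1-based. Isoforms were aligned globally with Biopython 1.88. Window counting was tested on simulated data. The genes named are the members, genes at their optimal summits, list members with an optimal summit and the 2 most similar peaks each for ftt-2 and cmd-1. Other list members and neighbouring genes are named after their values were seen. The members and lists were chosen with earlier results of these data known. No test was run: there is 1 group of 2 libraries, and whether these were separate cultures beyond the label of biological replicate was not given. Alternatives changed the window, the replicate, the strictness of the list and the overlap. Python 3.11.15, numpy 2.4.6 and pandas 2.3.3 were used.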

Additional observations from a re-analysis of the deposited data

How the results depend on the processing

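Of 71 recomputed values, 53 kept within the stated bounds (1.5 times for a count, 1 SD between replicates for a ratio) and 18 moved; the causes of the moves were not tested except where the window itself leaves a summit out. With a window of 1000 bp upstream, cmd-1 had 0 optimal summits and a strongest signal of 0.475 relative to the list, and 1438 genes had an optimal summit. With 2000 bp upstream, cmd-1 had 1 optimal summit and a relative signal of 0.833. The counts of ftt-2 and par-5 did not move with either window. In the 965 strongest optimal peaks, ftt-2 and cmd-1 had 1 summit each, par-5 had 0, 1461 genes had one, and the calmodulin target list had 1 gene. Leaving out 1 replicate meant counting summits among the 1929 strongest of the other replicate's own list, in place of optimal summits. cmd-1 then had 1 or 2 such summits. Of the calmodulin-like genes 1 or 2 had one, and of the calmodulin targets 1 or 2. Relative strongest signals were 4.41 to 4.78 at ftt-2, 0.739 to 1.12 at par-5 and 4.80 to 5.57 at cmd-1. The ftt-2 to par-5 ratio was 4.28 to 5.97. The lower counts and the ratio of 4.28 were those without replicate 3. Pairing by the nearest summit, an alternative chosen after seeing the data, gave 0.252 at par-5. With a stricter overlap rule (0.5 of the shorter peak), 5 and 4 of the 5 optimal summits were found among the strongest of replicates 3 and 4, as with 1 bp. No paired analysis was possible because there is 1 group. Depth is unknown and limits all of these values.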

Other observations

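Optimal summits also lay just past the 3' ends of ftt-2 and cmd-1, outside the windows described above. At ftt-2 one lay 276 bp past the 3' end at X:11603432, in intergenic sequence, with a signal of 143 in the pooled list (rank 783). The peak there in replicate 3 had a signal of 85.2, and that in replicate 4 had 65.4. At cmd-1 one lay 248 bp past the 3' end at V:1158437, in an intron of the convergent gene T21H3.5, with a signal of 129 (rank 996), 73.9 in replicate 3 and 57.5 in replicate 4. par-5 had no optimal summit there, but a pooled candidate 3 bp past its 3' end had a signal of 53.8 (rank 5303), and replicate 4 had a peak of signal 50.4 (rank 995) 10 bp past it. Of all protein-coding genes, 301 (1.51%) had an optimal summit within 300 bp past the 3' end. These places were noticed after the values were seen, and their relation to the genes was not tested.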
